A study of Mus musculus with 18 samples.

Results

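Intermediate 3T3-L1 adipocytes, the group Day6, labelled as day 6 after the stimuli of differentiation, were compared with Control cells of the same line. The comparison rests on 6 of the 18 libraries in the series, 3 from Day6 and 3 from Control. Groups were taken from the sample titles. Of 25209 genes listed, 12047 had at least 1 TPM (transcript abundance scaled for transcript length and library size) in at least 3 of these 6 libraries and were tested. The other 4 groups are MCE1, MCE2, Day4 and Day8, where MCE stands for mitotic clonal expansion, and only Day4 and Day8 are used below as neighbours of Day6.

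3T3-L1 is a mouse fibroblast line that can be turned into fat cells by hormones, and all libraries come from this 1 line. Per the labels, cells were grown in DMEM with 10% fetal bovine serum and held for 2 days after confluence. Differentiation was then induced for 48 h with 10 µg/mL insulin, 0.25 µM dexamethasone, a synthetic glucocorticoid, and 0.5 mM IBMX, an inhibitor of the enzymes that degrade cyclic AMP. After induction the medium held 5 µg/mL insulin and was changed every 2 days. By their titles, Day6 cells had been through the induction and part of the insulin phase. The labels list this same protocol for the Control libraries, whose titles name neither a day nor the stimuli. Whether Control cells had been induced is therefore not stated. The labels do not say whether the days count from the start or the end of induction, or whether Control cells were at confluence. Polyadenylated RNA was sequenced. Nothing in the labels tells whether the 3 replicates of a group were grown separately. The p-values therefore reflect the scatter among these libraries, which may be technical.

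As background, a preadipocyte that receives insulin, a glucocorticoid and a cyclic AMP signal first induces the transcription factors C/EBPβ and C/EBPδ, which switch on PPARγ and C/EBPα. PPARγ and C/EBPα then hold each other on and activate the genes of fat storage: fatty acid uptake and synthesis, triglyceride assembly, the proteins that coat the lipid droplet, insulin-regulated glucose transport, and secreted adipokines. The cell rounds up as its actin stress fibres are taken apart, and it leaves the cell cycle.

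Day6 and Control libraries were far apart. Across the genes tested, Pearson's r of log2(TPM + 1) was 0.982 to 0.990 between replicates of a group and 0.811 to 0.820 between a Day6 and a Control library. The tables kept no read depth, listed values summed to 877361 to 880197 TPM in Day6 and 872319 to 874183 TPM in Control, and no library of the 6 correlated better with the other group than with its own. Some genes that every cell uses were listed at or near 0, such as Hmgcs1, the HMG-CoA synthase of the cholesterol pathway, at 0 in all 6 libraries, and Prkar1a, a regulatory subunit of protein kinase A, at 0 in the 3 Day6 libraries and 1.69, 1.74 and 1.30 TPM in Control. A value of 0 is therefore reported as listed at 0, without a fold change. At Day6, 11718 to 11850 genes reached 1 TPM, against 11401 to 11622 in Control. Genes with near-identical copies, among them the actins, Gapdh, the Scd genes and the ribosomal protein genes, share reads, and their values are less certain.

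Of the 12047 genes tested, 8689 or 72.1% were called at an adjusted p under 0.05 with limma on log2(TPM + 1), 3707 higher at Day6 (30.8%) and 4982 lower (41.4%). These percentages are the background against which each gene list below is read. The log2 difference, Day6 minus Control on the log2(TPM + 1) scale, which understates the change of low genes, was at least 1 in size for 1746 of the higher and 1973 of the lower genes. It reached at least 3 for 264 higher and 112 lower genes. The median over all genes tested was -0.15, and scaling the libraries by the median ratio of their genes moved it by 0.15, to near 0. With 3 libraries against 3, an exact permutation test of a single gene could not give a p below 0.1, so calls rest on the fit across all genes. Ranges did not overlap between the groups for 9114 genes, 75.65% of those tested. Among them is each gene named below as having risen or fallen at Day6 against Control. For the 15 largest rises and 15 deepest falls this was required in the selection. The scatter of mean levels shows fat cell genes rising from the floor of the Control axis, while cytoskeletal and growth genes lie under the diagonal.

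**Figure D1:**
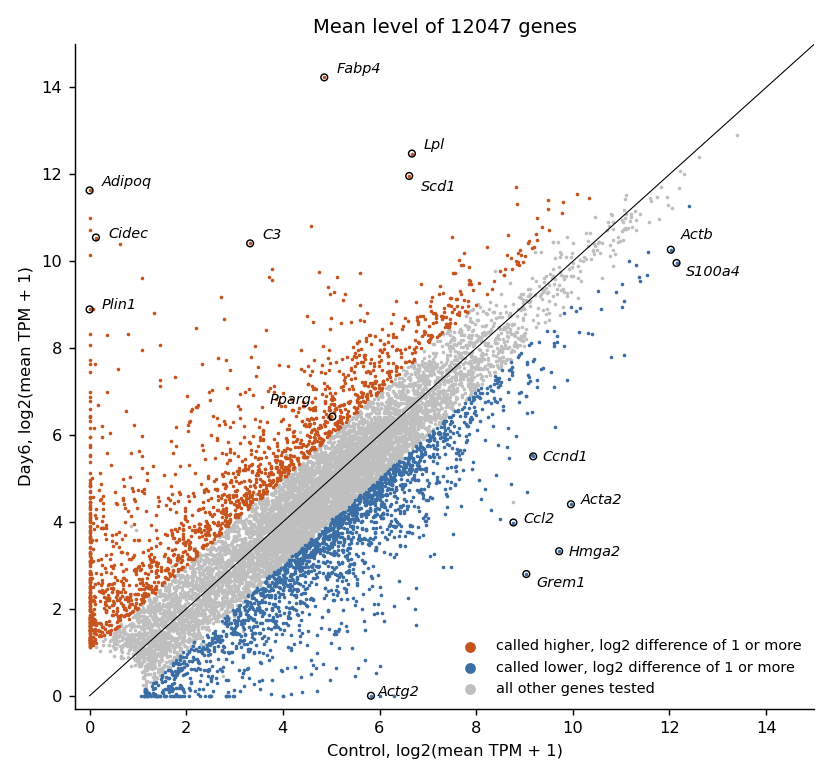
Mean level of each of the 12047 genes tested, as log2(mean TPM + 1), at Day6 (vertical axis) and in Control (horizontal axis), 3 libraries each. Orange points were called higher and blue points lower with a log2 difference of at least 1, grey points are all others, and the line marks equal levels; Adipoq, Plin1 and Cidec stand at or near 0 in Control and Actg2 at 0 at Day6.

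The strongest gains were in genes that define the fat cell. Adiponectin (Adipoq, chr16:23146609-23158041 in mm9), an insulin-sensitising hormone, stood at 3267, 3123 and 3111 TPM at Day6 and was listed at 0 in the 3 Control libraries (adjusted p = 4.779e-11). Fabp4 (chr3:10204343-10208616), the fatty acid carrier of the fat cell cytoplasm, had 20216, 17897 and 19604 TPM at Day6, against 26.2, 27.3 and 30.5 TPM in Control. Its mean was 688-fold higher at Day6, and it was the most abundant transcript there. Cidec (chr6:113374628-113384758), which fuses lipid droplets, had 1369, 1642 and 1472 TPM at Day6 and 0.286, 0 and 0 TPM in Control. In each of these genes every Day6 library stood far above every Control library.

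Of the 15 genes with the largest log2 rise among those that averaged at least 10 TPM, 8 more were listed at 0 in Control: Cfd, Retn, G0s2, Plin1, Adig, Mrap, Hp and Car3. The remaining genes of these 15, beside Adipoq, Fabp4 and Cidec, were Gpd1, Thrsp, Rarres2 and Lcn2. Adig, adipogenin, a small membrane protein of fat cells, reached 344, 287 and 327 TPM at Day6. Mrap, the accessory protein that carries the ACTH receptor to the cell surface, reached 307, 253 and 248 TPM at Day6. Car3, a carbonic anhydrase abundant in fat and muscle, reached 201, 205 and 190.2 TPM at Day6. By mean TPM, the 5 largest gains were those of Fabp4, Lpl, Scd1, Adipoq and Col3a1, that is, 4 fat cell genes and a fibrillar collagen. The plot of levels in each library shows how small the replicate spread was beside these differences, with Pparg as the exception.

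**Figure D2:**
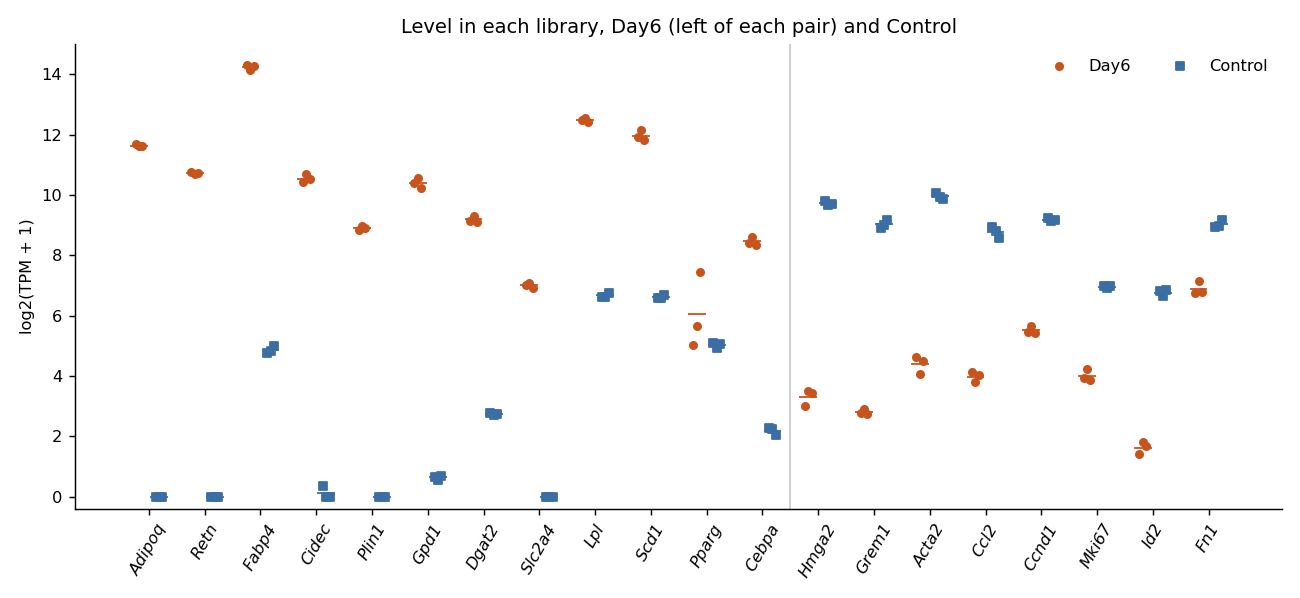
Level of 20 genes as log2(TPM + 1) in each of the 3 Day6 libraries (orange circles, left of each pair) and 3 Control libraries (blue squares), with group means as lines. Left of the grey line are fat cell genes, right of it genes that fell; the groups overlap for Pparg (31.4, 49.2 and 174 TPM at Day6, 32.96, 29.5 and 32.1 TPM in Control) and for no other gene drawn.

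Most transcription factors of the fat cell programme rose, and Pparg was not called. Of 22 factors listed, 18 were tested, and 14 rose, 3 fell and 1 was not called, with a median log2 difference of 1.35 against -0.15 over all genes. Cebpa, which sustains the mature state, had 339.7, 389 and 324 TPM at Day6, against 3.80, 3.74 and 3.16 TPM in Control (log2 difference 6.27 ± 0.10 SE, adjusted p = 9.754e-09). Klf15, a Krüppel-like factor of mature fat cells, had 48.9, 54.9 and 50.7 TPM at Day6 and was listed at 0 in Control. Nr1h3, the liver X receptor α, had 84.4, 76.8 and 70.4 TPM at Day6, against 4.67, 1.60 and 3.14 TPM in Control. Srebf1, which drives lipogenic enzymes, rose by a log2 difference of 1.48 ± 0.07 SE, and Ppargc1b, a coactivator of mitochondrial genes, by 3.02 ± 0.15 SE. The groups did not overlap for any of these 5 genes, nor for 75.65% of all genes tested.

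The early factors Cebpb and Cebpd were also higher. Cebpb had 547, 396 and 495 TPM at Day6, against 225, 299 and 206 TPM in Control (log2 difference 0.98 ± 0.16 SE). Cebpd rose by 1.52 ± 0.08 SE on the log2 scale. Pparg, the nuclear receptor at the centre of fat cell formation, had 31.4, 49.2 and 174 TPM at Day6, against 32.96, 29.5 and 32.1 TPM in Control. Its log2 difference was 1.02 ± 0.55 SE with an adjusted p of 0.1292, and the first Day6 library sat within the Control range. Without that library the difference was 1.53 with an adjusted p of 0.0278, and without the third Day6 library it was 0.31 with an adjusted p of 0.1721. The 3 factors that fell were Klf5, Klf4 and Ebf3. Klf5, a Krüppel-like factor of the early phase, had 3.49, 4.90 and 2.99 TPM at Day6, against 44.9, 43.4 and 40.4 TPM in Control. Mlxipl, the carbohydrate response factor ChREBP, was listed at 0 in all 6 libraries.

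Genes listed as repressors of fat cell formation mostly fell. The list was written from general knowledge, and the role of each member in these cells was not tested. Of 24 listed, 22 were tested, and 15 fell, 3 rose and 4 were not called (median log2 difference -1.08). Id2, an inhibitor of basic helix-loop-helix factors, had 1.68, 2.48 and 2.17 TPM at Day6, against 110.4, 98.5 and 113 TPM in Control. Id3 had 19.7, 22.8 and 23.9 TPM at Day6, against 264, 275 and 276 TPM in Control. Snai1 and Sox9, factors of mesenchymal and cartilage fate, fell by 1.83 and 2.07 on the log2 scale. The 3 that rose were Ddit3, Tcf7l1 and Twist1. Ddit3, which encodes the stress factor CHOP that blocks C/EBP proteins, had 321, 263 and 289.9 TPM at Day6, against 108, 105 and 103 TPM in Control.

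Most proteins of the lipid droplet surface rose. Of 16 listed, 12 were tested, and 10 rose, none fell and 2 were not called (median 2.46). Plin1, perilipin 1, which gates access of lipases to the droplet, had 452, 494 and 476 TPM at Day6 and was listed at 0 in Control. G0s2, an inhibitor of the lipase ATGL, had 1265, 994 and 1152 TPM at Day6 and was also listed at 0 in Control. Plin4 had 204, 245 and 209 TPM at Day6, against 22.3, 29.04 and 36.8 TPM in Control. Abhd5, the activator of ATGL, and Fitm2, which helps droplets bud, rose by 2.87 and 3.06 on the log2 scale. Plin3, a perilipin of many cell types, was not called, with 115, 128 and 115 TPM at Day6 and 115, 139 and 140.2 TPM in Control. Bscl2, seipin, was not called either, and its values were scattered, at 36.7, 0 and 5.61 TPM at Day6 and 0, 0 and 2.45 TPM in Control.

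Most genes of fat release rose as well. Of 16 genes of lipolysis and its adrenergic control, 10 were tested, and 8 rose, 1 fell and 1 was not called (median 4.19). Pnpla2, which encodes ATGL, the first lipase of triglyceride breakdown, had 759.5, 883 and 744 TPM at Day6, against 11.8, 11.9 and 12.6 TPM in Control. Lipe, hormone-sensitive lipase, had 325, 419.7 and 482 TPM at Day6, against 5.72, 4.83 and 6.97 TPM in Control. Adrb3, the β3-adrenergic receptor of rodent fat cells, had 27.7, 24.1 and 24.2 TPM at Day6 and was listed at 0 in Control. Hcar1, the lactate receptor that restrains lipolysis, had 47.5, 45.4 and 40.8 TPM at Day6 and was listed at 0 in Control. Pde3b, through which insulin lowers cyclic AMP, rose by 3.81 ± 0.12 SE on the log2 scale. The 1 gene that fell was Gnas, with 0.528, 2.24 and 0.774 TPM at Day6 and 3.74, 3.13 and 4.56 TPM in Control. Gnas encodes the stimulatory G protein α subunit that every cell uses, and it is among the genes listed near 0.

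Most genes of triglyceride assembly rose. Of 19 genes, 18 were tested, and 13 rose, 2 fell and 3 were not called (median 2.88), with a summed level of 5362 TPM at Day6 and 274 TPM in Control. Gpd1, which makes glycerol 3-phosphate from a glycolytic intermediate, had 1342, 1513 and 1207 TPM at Day6, against 0.567, 0.481 and 0.620 TPM in Control. Dgat2, which adds the last fatty acid, had 561, 633 and 554 TPM at Day6, against 5.82, 5.47 and 5.60 TPM in Control, a 103-fold higher mean. Dgat1, the other enzyme of that step, rose by 4.26 ± 0.07 SE on the log2 scale. Acsl1, which activates long-chain fatty acids, had 1723, 2026 and 1656 TPM at Day6, against 21.6, 23.3 and 23.9 TPM in Control. Gpat3, an acyltransferase of the first step, rose by 4.31, while its relative Gpat4 was not called (log2 difference 0.07 ± 0.07 SE). Under median-ratio scaling Gpat4 was called higher (0.24). Pck1, which feeds glycerol synthesis in fat cells, had 30.03, 29.8 and 27.1 TPM at Day6 and was listed at 0 in Control. The 2 that fell were Gpd2, the mitochondrial counterpart of Gpd1, and Lpin2, a phosphatidate phosphatase, by 1.34 and 0.69 on the log2 scale.

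Fatty acid uptake rose mainly through a few very abundant transcripts. Of 20 genes, 17 were tested, and 11 rose, 5 fell and 1 was not called (median 1.16). The list summed to 30967 TPM at Day6 and 1687 TPM in Control, and Fabp4 with Lpl made up most of the Day6 sum. Lpl, lipoprotein lipase, which frees fatty acids from circulating lipoproteins, had 5739, 5931 and 5438 TPM at Day6, against 98.04, 97.7 and 107 TPM in Control. Cd36, a fatty acid translocase, had 275, 249 and 278 TPM at Day6, against 1.74, 1.65 and 1.87 TPM in Control. Fabp5, the epidermal fatty acid binding protein, rose by 3.07 ± 0.05 SE on the log2 scale. The members that fell included Acsl5, another acyl-CoA synthetase, and Got2, by 1.36 and 0.67 on the log2 scale.

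Of 20 genes of fatty acid synthesis and desaturation, 18 were tested, and 11 rose, 2 fell and 5 were not called (median 1.06). Scd1, the desaturase that makes oleate, had 3869, 4531 and 3569.8 TPM at Day6, against 94.2, 94.8 and 102 TPM in Control, a 41.1-fold higher mean. Fasn, fatty acid synthase, had 301, 463 and 326 TPM at Day6, against 162, 167 and 178 TPM in Control (log2 difference 1.07 ± 0.15 SE). Slc25a1, the citrate carrier that exports carbon for lipid synthesis, rose by 2.21 ± 0.04 SE, and Thrsp, a lipogenic nuclear protein, was at 444, 514 and 463 TPM at Day6 and 0, 0 and 0.154 TPM in Control. Acly and Acaca, at the head of the pathway, were not called. Acly, which makes cytosolic acetyl-CoA, had 135, 169.6 and 127 TPM at Day6, against 153, 152 and 151 TPM in Control, and Acaca, acetyl-CoA carboxylase 1, differed by 0.17 ± 0.14 SE. Acaca was called higher under median-ratio and quantile scaling (0.33 and 0.32), and Acly was called lower without the second Day6 library (-0.22). Acacb, the mitochondria-bound carboxylase, rose by 2.08 ± 0.15 SE. The desaturases Fads1 and Fads2 were not called, but both were called higher under median-ratio scaling (0.21 and 0.29), while Elovl6, which lengthens palmitate, fell by 1.18 ± 0.09 SE.

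Secreted proteins of fat cells were the list with the highest median. Of 30 listed, 24 were tested, and 20 rose, 1 fell and 3 were not called, with a median log2 difference of 4.30 and a summed level of 17381 TPM at Day6 and 601 TPM in Control. Resistin (Retn) had 1736, 1653 and 1673 TPM at Day6, and adipsin (Cfd), a protease of the alternative complement pathway, had 2141, 1809 and 2169 TPM at Day6. Both were listed at 0 in Control. Rarres2, chemerin, had 839, 724 and 780.3 TPM at Day6, against 0.704, 0.716 and 1.94 TPM in Control. C3, complement component 3, had 1154, 1678 and 1250.2 TPM at Day6, against 7.86, 8.67 and 10.5 TPM in Control. Haptoglobin (Hp) and lipocalin 2 (Lcn2), acute-phase proteins made by fat, stood at 206 to 215 TPM and 295 to 334 TPM at Day6, and at 0 and 0 to 0.486 TPM in Control.

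Leptin stayed low. Lep, the satiety hormone of mature fat, had 1.85, 1.15 and 1.26 TPM at Day6 and was listed at 0 in Control. Angptl2, an angiopoietin-like factor, was the 1 member that fell, with 123, 139 and 123 TPM at Day6 and 315, 318 and 338 TPM in Control. Its relative Angptl4, an inhibitor of lipoprotein lipase, rose by 2.12 ± 0.05 SE on the log2 scale. Each library is bulk RNA from a dish, so fewer cells of a type and less RNA per cell cannot be told apart.

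Among 28 genes of insulin signalling and glucose transport, 26 were tested, and 16 rose, 6 fell and 4 were not called (median 0.73). Slc2a4, the insulin-regulated transporter GLUT4, had 128, 133 and 120.04 TPM at Day6 and was listed at 0 in Control. Slc2a1, the basal transporter GLUT1, had 172, 158 and 166 TPM at Day6, against 81.2, 80.8 and 77.4 TPM in Control. Sort1, sortilin, which builds GLUT4 storage vesicles, had 43.6, 50.7 and 47.8 TPM at Day6, against 2.30, 1.997 and 2.67 TPM in Control. Pik3r1, the regulatory subunit of PI 3-kinase, rose by 2.12 ± 0.13 SE on the log2 scale. The receptor Insr and the substrate Irs1 rose by 0.86 ± 0.22 SE and 0.41 ± 0.13 SE, and Irs1 was no longer called without the second or the third Control library. Grb14, an adaptor that inhibits the insulin receptor, fell to 9.24, 10.8 and 8.72 TPM at Day6, against 60.7, 59.5 and 60.5 TPM in Control. Igf1r, the IGF-1 receptor, fell by 1.36 ± 0.16 SE, and Akt2 was not called (log2 difference 0.01 ± 0.14 SE).

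Most genes of sugar breakdown rose. Of 26 genes of glycolysis and the pentose phosphate pathway, 24 were tested, and 19 rose, 4 fell and 1 was not called (median 0.68). Aldoa, aldolase A, had 2477, 2490.4 and 2734 TPM at Day6, against 421, 431 and 515 TPM in Control. Pfkl, liver-type phosphofructokinase, rose by 2.59 ± 0.05 SE and Ldhb, a lactate dehydrogenase subunit, by 3.19 ± 0.06 SE on the log2 scale. Hexokinase 2 (Hk2) had 93.1, 111 and 97.9 TPM at Day6, against 22.3, 19.3 and 19.8 TPM in Control, while hexokinase 1 (Hk1) fell by 0.56 ± 0.07 SE. Pkm, pyruvate kinase M, fell to 1239, 1448 and 1478 TPM at Day6, against 1966, 1974 and 1922 TPM in Control.

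Mitochondrial lists rose nearly as a whole. All 31 genes of pyruvate entry and the citrate cycle were tested, and 30 rose and 1 fell (median 1.45). Pcx, pyruvate carboxylase, which refills oxaloacetate, had 783, 979 and 836 TPM at Day6, against 23.2, 26.7 and 27.2 TPM in Control. Mpc1 and Mpc2, the 2 subunits of the mitochondrial pyruvate carrier, rose by 2.57 and 2.50 on the log2 scale. Pdk4, a kinase that shuts pyruvate dehydrogenase, was the 1 member that fell, with 9.74, 12.8 and 9.04 TPM at Day6 and 14.7, 15.8 and 17.4 TPM in Control. Its relative Pdk1 rose by 3.29 ± 0.06 SE.

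All 62 respiratory chain genes listed were tested, and 61 rose, none fell and 1, Atp5d, was not called (median 1.19). Their summed level was 36884 TPM at Day6 and 15714 TPM in Control. Uqcrfs1, the Rieske protein of complex III, had 569.9, 549 and 601 TPM at Day6, against 135, 141 and 130.2 TPM in Control. Ndufa6 of complex I rose by 1.93 ± 0.06 SE and Cox6a1 of complex IV by 1.92 ± 0.08 SE on the log2 scale. Cox7a1, the heart and brown fat isoform of a complex IV subunit, rose most, with 116, 62.5 and 101 TPM at Day6 and 0.920, 0 and 1.15 TPM in Control.

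Nearly all genes of fatty acid oxidation rose. Of 36 genes of oxidation and the peroxisome, 34 were tested, and 32 rose, 1 fell and 1 was not called (median 1.87). Cpt1a, which admits long-chain fatty acids to mitochondria, was the 1 that fell, with 26.3, 30.2 and 24.8 TPM at Day6 and 75.8, 79.01 and 84.7 TPM in Control. The next enzyme, Cpt2, had 138, 145 and 133 TPM at Day6, against 23.8, 22.5 and 23.4 TPM in Control. Acadm, medium-chain acyl-CoA dehydrogenase, rose by 3.06 ± 0.07 SE and Pex11a, a peroxisome division protein, by 3.89 ± 0.08 SE on the log2 scale.

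Breakdown of branched-chain amino acids, which supplies carbon for lipid synthesis in fat cells, mostly rose. Of 27 genes, 26 were tested, and 24 rose, 1 fell and 1 was not called (median 1.96). The transaminases moved in opposite directions. Bcat2, the mitochondrial enzyme, had 642, 692 and 699 TPM at Day6, against 25.2, 30.4 and 33.4 TPM in Control, whereas Bcat1, the cytosolic enzyme, had 3.10, 2.83 and 2.28 TPM at Day6, against 67.1, 64.8 and 62.7 TPM in Control. Bckdhb and Dbt, subunits of the branched-chain ketoacid dehydrogenase, rose by 3.22 and 4.47 on the log2 scale. Bckdk, the kinase that inhibits this complex, was not called, with 59.5, 58.6 and 55.2 TPM at Day6 and 59.7, 56.4 and 57.6 TPM in Control.

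Most brown and beige fat markers were listed at or near 0. Of 24 listed, 7 passed the filter, and 6 of these rose and 1 was not called. Ucp1, the uncoupling protein of brown fat, was listed at 0 in all 6 libraries, and Cidea, Prdm16, Dio2, Elovl3 and Zic1 were under the filter. Cox8b, a complex IV subunit of heart and brown fat, had 103, 100.02 and 126 TPM at Day6 and was listed at 0 in Control. Ppargc1a, a coactivator of mitochondrial genes, had 7.46, 8.41 and 7.48 TPM at Day6, against 2.55, 2.31 and 3.50 TPM in Control.

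More genes of cholesterol synthesis fell than rose, as over all genes tested. Of 25 genes, 22 were tested, and 4 rose, 12 fell and 6 were not called. These are 18.18% higher and 54.55% lower, against 30.8% and 41.4% of all genes tested. The median of -0.16 was near the -0.15 of all genes, and both were 0.00 under median-ratio scaling. Under that scaling 5 of the list rose and 9 fell, whereas over all genes 4449 rose and 4226 fell. Srebf2, the factor that drives the pathway, and Idi1 fell by 1.02 and 0.97 on the log2 scale. Insig1, which retains the sterol sensor in the endoplasmic reticulum, rose to 416, 432 and 409 TPM at Day6, against 100.3, 111 and 117 TPM in Control.

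**Figure D3:**
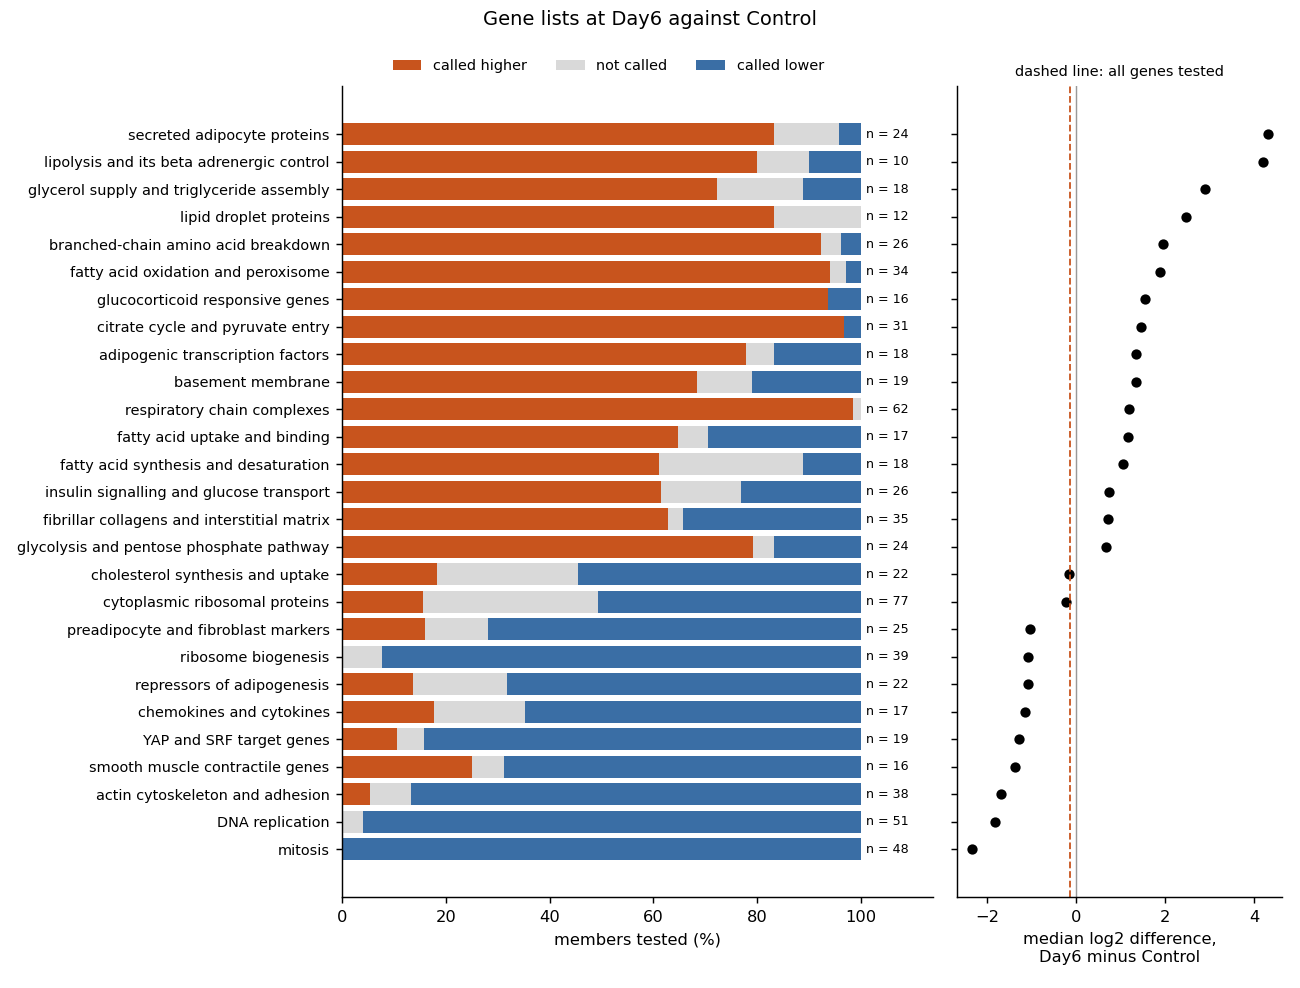
For 27 gene lists, the share of tested members called higher (orange), not called (grey) and called lower (blue) at Day6 against Control, with n the members tested, and on the right each list's median log2 difference. The dashed line is the median of all genes tested, -0.15; secreted adipocyte proteins stand highest (4.30) and mitosis lowest (-2.33).

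Genes that answer glucocorticoid were mostly above Control. Of 20 listed, 16 were tested, and 15 rose and 1, Pdk4, fell (median 1.55). Fkbp5, a co-chaperone of the glucocorticoid receptor, had 91.3, 125 and 108 TPM at Day6, against 51.2, 49.2 and 52.3 TPM in Control. Hsd11b1, which regenerates active glucocorticoid inside fat cells, had 344, 289.7 and 323 TPM at Day6, against 0.908, 0.940 and 0.329 TPM in Control. Glul, glutamine synthetase, rose by 3.85 ± 0.08 SE on the log2 scale. Several members, such as Hsd11b1, Lcn2 and Angptl4, are also known as fat cell genes. Of 20 cyclic AMP and insulin responsive genes, 14 were tested, and 12 rose and 2 fell, led by Pck1 and Rgs2, a regulator of G protein signalling with 173, 179.7 and 189.7 TPM at Day6 and 5.90, 7.23 and 6.37 TPM in Control.

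Matrix genes moved in both directions. Of 38 genes of fibrillar collagens and interstitial matrix, 35 were tested, and 22 rose, 12 fell and 1 was not called (median 0.71). Col3a1, a fibrillar collagen, had 3058, 3544 and 3365 TPM at Day6, against 403, 449 and 506 TPM in Control. Decorin (Dcn), a small proteoglycan that binds collagen, had 816, 873 and 845 TPM at Day6, against 38.9, 44.4 and 59.8 TPM in Control. Its relatives lumican (Lum) and osteoglycin (Ogn) rose by 6.52 and 4.45 on the log2 scale. Col1a1 rose by only 0.37 ± 0.10 SE.

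Among the 12 members that fell was fibronectin (Fn1), an adhesive glycoprotein. It had 107, 140.4 and 110.1 TPM at Day6, against 488, 499.6 and 577 TPM in Control. Thrombospondin 1 (Thbs1) also fell, by 2.26 ± 0.08 SE on the log2 scale. Tenascin C (Tnc) had 0.219, 0 and 0 TPM at Day6, against 20.7, 18.04 and 37.01 TPM in Control.

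Of 22 basement membrane genes, 19 were tested, and 13 rose, 4 fell and 2 were not called (median 1.34). Col15a1, a collagen next to the basement membrane, had 94.9, 104 and 90.2 TPM at Day6, against 2.74, 3.75 and 3.57 TPM in Control. Col6a3, of the collagen VI that surrounds fat cells, rose by 2.39 ± 0.12 SE and nidogen 2 (Nid2) by 3.49 ± 0.11 SE on the log2 scale. Of 29 proteases and inhibitors, 24 were tested, and 13 rose, 10 fell and 1 was not called. The tissue inhibitors of metalloproteinases split: Timp1 had 51.4, 37.5 and 47.2 TPM at Day6, against 579, 592 and 524 TPM in Control, and Timp3 fell by 3.85 ± 0.14 SE, while Timp4 had 24.7, 20.7 and 22.9 TPM at Day6, against 0, 0 and 0.128 TPM in Control. Mmp2, gelatinase A, rose by 2.24 ± 0.12 SE. Plaur, the urokinase receptor, fell by 4.30 ± 0.14 SE.

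Most genes of the actin cytoskeleton fell. Of 38 genes of the actin cytoskeleton and adhesion, all tested, 33 fell, 2 rose and 3 were not called (median -1.70), and their summed level was 16815 TPM at Day6 and 49501 TPM in Control. Actb, β-actin, had 1226, 1299 and 1164 TPM at Day6, against 4383, 4083 and 4052 TPM in Control. Actg1, Vim and S100a4 encode γ-actin, vimentin and a calcium-binding protein of motile cells. With Actb and Eef1a1 they were the 5 ranked genes with the largest loss of mean TPM. S100a4 had 1024, 923 and 1038 TPM at Day6, against 4453, 4677 and 4466 TPM in Control. The 2 that rose were the laminin-binding integrins Itga7 and Itga6, by 3.80 ± 0.22 SE and 1.08 ± 0.06 SE on the log2 scale.

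Smooth muscle genes were among the deepest losses. Of 21 listed, 16 were tested, and 11 fell, 4 rose and 1 was not called (median -1.37). Acta2, smooth muscle α-actin (chr19:34314826-34329863), had 23.5, 15.6 and 21.6 TPM at Day6, against 1073, 981 and 933 TPM in Control, a 49.3-fold higher mean in Control. Actg2, smooth muscle γ-actin, was listed at 0 at Day6 and had 58.3, 54.04 and 54.4 TPM in Control. Tagln, transgelin, fell by 4.75 ± 0.16 SE on the log2 scale. The members that rose were Itga1, an integrin, Mylk, the myosin light chain kinase, Myh11, smooth muscle myosin, and Des, desmin. Of 20 targets of YAP and SRF, the factors that read cell tension and actin assembly, 19 were tested, and 16 fell, 2 rose and 1 was not called (median -1.29). Ccn1, a matricellular protein, had 16.1, 18.9 and 16.1 TPM at Day6, against 170.4, 157 and 162 TPM in Control, and Ankrd1 was listed at 0 at Day6 with 8.78, 6.61 and 5.52 TPM in Control. The 2 that rose were the immediate early genes Egr1 and Fos, by 0.38 and 0.94.

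Preadipocyte and fibroblast markers mostly fell. Of 32 listed, 25 were tested, and 18 fell, 4 rose and 3 were not called (median -1.02). Grem1, gremlin, a BMP antagonist (chr2:113588832-113598805), had 5.83, 6.47 and 5.61 TPM at Day6, against 483, 515 and 576 TPM in Control. Cd44, the hyaluronan receptor, fell by 3.10 ± 0.07 SE on the log2 scale. Dlk1 (Pref-1), the classical preadipocyte marker, had 11.2, 11.7 and 9.86 TPM at Day6, against 11.7, 30.4 and 25.8 TPM in Control. Its groups nearly touched, and its call (log2 difference -0.89, adjusted p = 0.03446) was lost without any single library but the first Control library. The Dlk1 call was also lost under median-ratio scaling, quantile normalization and without a filter. It was lost too in a fit over all 18 libraries and in a plainer fit of the 6. Pdgfra, the PDGF receptor of fat cell progenitors, rose, with 120.5, 176 and 136 TPM at Day6 and 78.3, 73.9 and 43.9 TPM in Control.

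Among the genes ranked, at a mean of at least 10 TPM, the deepest fall was that of Hmga2 (chr10:119798324-119913525), a chromatin protein of growing mesenchymal cells. It had 7.07, 10.3 and 9.71 TPM at Day6, against 892, 807 and 821 TPM in Control, a 93.0-fold higher mean in Control. Cck, cholecystokinin, and U90926 were listed at 0 at Day6, with 81.2, 79.7 and 73.3 TPM and with 78.1, 56.03 and 56.3 TPM in Control. Rgs4, Klhdc8a, Dlx2 and Tes fell by 5.34, 4.92, 4.90 and 4.52 on the log2 scale. Tes, testin, is a focal adhesion protein. The remaining genes of the 15 deepest falls were Grem1, Actg2, Acta2, Tnnt2, Id2, Ccl2, Tagln and Tnc.

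Genes of cell division fell almost without exception. Of 52 genes of DNA replication, 51 were tested, and 49 fell, none rose and 2 were not called (median -1.81). Of 50 genes of mitosis, 48 were tested and all 48 fell (median -2.33), and their summed level was 885 TPM at Day6 and 4426 TPM in Control. Mki67, the proliferation antigen Ki-67, had 14.3, 17.6 and 13.6 TPM at Day6, against 124, 121 and 126 TPM in Control. Kif23, a motor of the central spindle, had 5.85, 4.90 and 4.95 TPM at Day6, against 89.03, 78.6 and 82.6 TPM in Control. Kif11, the motor that separates spindle poles, fell by 2.96 ± 0.08 SE and Top2a, topoisomerase IIα, by 2.55 ± 0.06 SE on the log2 scale. In replication, Mcm3 of the helicase had 29.3, 31.2 and 27.4 TPM at Day6, against 181, 176 and 174 TPM in Control, and Clspn, a fork protein, fell by 2.58 ± 0.10 SE. The 2 replication genes not called were Rfc1 and Rpa3.

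Because the mitosis genes moved together, their promoters are shown. Windows of 300 bases, 250 before to 50 after the start site, were taken from RefSeq on GRCm38.p6, another build than the mm9 of the expression files. Motifs were searched on both strands: the CCAAT box, the cell cycle homology region CHR (TTTGAA) and the E2F core (TTGGCG or TTCGCG), which can overlap a CCAAT box read on the other strand. Of the 48 tested mitosis genes, 41 matched, with 44 promoters. A CHR match was found in 34 of these 44 (77.3%), against 11.8% of the 11628 promoters of tested genes and 17.9% of all 32851 promoters. A CCAAT box was found in 35 (79.6%), against 38.6% of the promoters of tested genes and 37.4% of all. Both occurred in 30 of 44 (68.2%), against 4.88% of the promoters of tested genes and 6.95% of all. Kif23 (chr9:61946750-61947049, minus strand), Kif11 (chr19:37376132-37376431, plus strand) and Top2a (chr11:99024140-99024439, minus strand) are printed because they fell and carry both, with CCAAT boxes and CHR matches in capitals.
Kif23: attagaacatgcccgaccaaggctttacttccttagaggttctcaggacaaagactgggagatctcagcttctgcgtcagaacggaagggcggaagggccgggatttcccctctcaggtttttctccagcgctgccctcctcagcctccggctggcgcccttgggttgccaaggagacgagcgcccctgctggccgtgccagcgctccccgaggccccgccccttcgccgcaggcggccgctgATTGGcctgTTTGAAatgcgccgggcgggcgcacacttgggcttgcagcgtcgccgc
Kif11: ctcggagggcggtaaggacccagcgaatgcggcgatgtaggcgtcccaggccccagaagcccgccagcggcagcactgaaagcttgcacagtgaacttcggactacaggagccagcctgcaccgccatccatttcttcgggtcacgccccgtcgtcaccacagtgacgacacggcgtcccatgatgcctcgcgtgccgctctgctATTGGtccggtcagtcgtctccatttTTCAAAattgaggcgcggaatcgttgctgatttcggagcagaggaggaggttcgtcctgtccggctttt
Top2a: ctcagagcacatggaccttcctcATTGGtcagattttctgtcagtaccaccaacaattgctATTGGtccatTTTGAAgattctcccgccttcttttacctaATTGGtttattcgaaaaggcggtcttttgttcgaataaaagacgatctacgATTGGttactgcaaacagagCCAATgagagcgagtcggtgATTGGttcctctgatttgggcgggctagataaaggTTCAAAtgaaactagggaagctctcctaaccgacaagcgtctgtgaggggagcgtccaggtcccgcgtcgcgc

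Of the 51 tested replication genes, 40 matched, with 45 promoters. The E2F core was found in 23 of these 45 (51.1%), against 18.8% of the promoters of tested genes and 10.7% of all promoters. The CCAAT box was found in 27 (60%), and CHR in 8 (17.8%), against 11.8% of the promoters of tested genes and 17.9% of all. Mcm3 (chr1:20820263-20820562, minus strand) and Clspn (chr4:126556730-126557029, plus strand) are printed as replication genes with E2F cores and CCAAT boxes in capitals. Adipoq (chr16:23146286-23146585, plus strand) is printed beside them as the ranked gene with the largest log2 rise. Its window holds CCAAT boxes, in capitals, and no CHR or E2F core. Its list, secreted adipocyte proteins, held a CHR match in 6 of 22 promoters (27.3%) and an E2F core in 7 (31.8%). Both shares were above those of the promoters of tested genes. Lipid droplet proteins held neither motif in 17 promoters, and triglyceride assembly held CHR in 2 and the E2F core in 1 of 21. A match is a description of letters and was not tested for binding.
Mcm3: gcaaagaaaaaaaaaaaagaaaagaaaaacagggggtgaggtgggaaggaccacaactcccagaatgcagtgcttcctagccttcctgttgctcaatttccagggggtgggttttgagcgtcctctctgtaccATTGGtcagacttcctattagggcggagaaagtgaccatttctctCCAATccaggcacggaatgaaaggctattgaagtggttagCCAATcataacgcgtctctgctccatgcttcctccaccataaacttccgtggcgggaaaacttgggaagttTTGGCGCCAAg
Clspn: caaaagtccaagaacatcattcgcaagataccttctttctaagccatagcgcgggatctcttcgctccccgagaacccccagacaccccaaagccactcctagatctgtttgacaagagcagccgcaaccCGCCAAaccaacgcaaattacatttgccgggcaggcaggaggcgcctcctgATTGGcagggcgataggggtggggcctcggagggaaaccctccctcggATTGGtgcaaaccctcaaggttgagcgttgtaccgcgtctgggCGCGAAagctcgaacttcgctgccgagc
Adipoq: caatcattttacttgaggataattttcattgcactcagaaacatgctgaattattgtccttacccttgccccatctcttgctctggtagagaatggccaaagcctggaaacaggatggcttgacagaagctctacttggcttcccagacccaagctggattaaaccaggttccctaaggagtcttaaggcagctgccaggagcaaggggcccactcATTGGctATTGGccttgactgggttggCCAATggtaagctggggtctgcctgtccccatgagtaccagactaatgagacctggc

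Cell cycle regulators split much as all genes tested did, with 31.43% called higher and 48.57% lower, against 30.8% and 41.4% of all genes. Of 39 listed, 35 were tested, and 11 rose, 17 fell and 7 were not called (median -0.45). Ccnd1, cyclin D1, had 42.9, 48.8 and 41.9 TPM at Day6, against 603, 561 and 572 TPM in Control, while Ccnd2 was not called (log2 difference -0.03 ± 0.09 SE). Cdkn1a, the inhibitor p21, also fell, with 0, 3.26 and 0 TPM at Day6 and 21.5, 15.3 and 14.3 TPM in Control. Among the members that rose were Mxi1, an antagonist of Myc, and the antiproliferative genes Btg2 and Tob1, by 3.31, 2.50 and 2.41 on the log2 scale. Myc itself was not called, with 16.8, 36.8 and 34.99 TPM at Day6 and 42.9, 42.02 and 37.6 TPM in Control. Its ranges did not overlap, and it was called lower when each library was weighted by its scatter (-0.67).

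Most genes that build ribosomes fell, and the split of ribosomal protein genes depended on the scaling. Of 39 ribosome biogenesis genes, all tested, 36 fell, none rose and 3 were not called (median -1.07). Utp20, of the small subunit processome, had 6.41, 8.71 and 7.32 TPM at Day6, against 52.8, 50.2 and 50.2 TPM in Control. Polr1a, the largest subunit of RNA polymerase I, fell by 1.89 ± 0.12 SE on the log2 scale. Of 78 cytoplasmic ribosomal proteins, 77 were tested, and 12 rose, 39 fell and 26 were not called (median -0.22), but under median-ratio scaling 16 rose and 12 fell (median -0.05). Of 18 housekeeping genes tested, 5 rose, 7 fell and 6 were not called (median -0.07, and 0.10 under median-ratio scaling), shares near those of all genes. Among them Actb fell by 1.76 and Pgk1 rose by 1.33 on the log2 scale, and B2m and Rpl13a were not called.

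Inflammatory signals moved in different directions. Of 30 chemokines and cytokines, 17 were tested, and 11 fell, 3 rose and 3 were not called (median -1.15). Ccl2, the monocyte attractant MCP-1 (chr11:81849079-81850954), had 16.6, 12.8 and 15.2 TPM at Day6, against 488, 442 and 377 TPM in Control. Its neighbours Ccl7 (chr11:81859214-81861025) and Ccl8 (chr11:81928687-81930301) fell by 4.05 ± 0.17 SE and 2.16 ± 0.50 SE on the log2 scale. Csf1, the macrophage growth factor, fell by 3.33 ± 0.07 SE. Cxcl12, a chemokine of stromal cells, rose, with 1154, 1230.4 and 1190.5 TPM at Day6 and 839.98, 844 and 878 TPM in Control.

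Of 39 interferon and antiviral genes, 28 were tested, and 16 rose, 4 fell and 8 were not called (median 0.73). H2-K1, a class I antigen, had 286, 254 and 280.2 TPM at Day6, against 67.01, 67.2 and 66.3 TPM in Control, and Psmb8, an immunoproteasome subunit, rose by 2.56 ± 0.15 SE on the log2 scale. Irf5 fell, with 0.0634, 0 and 0 TPM at Day6 and 13.4, 18.3 and 18.998 TPM in Control. Of 24 complement genes listed, 13 were tested, and 7 rose, 2 fell and 4 were not called. Beside C3 and Cfd, the protease C1s1 rose to 108, 116 and 117 TPM at Day6, against 15.9, 16.1 and 18.9 TPM in Control.

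Among the 32 genes of protein folding stress and secretion, all tested, 19 rose, 7 fell and 6 were not called (median 0.22). Ero1l, the oxidase that forms disulfide bonds in the endoplasmic reticulum, had 619.7, 575 and 632 TPM at Day6, against 38.5, 35.1 and 40.8 TPM in Control. Hspa5, the chaperone BiP, rose by 1.04 ± 0.05 SE on the log2 scale. Asns and Chac1, targets of the factor ATF4, fell by 0.95 and 0.50, and Atf4 itself was not called. Under quantile normalization Atf4 was called lower (-0.17). Of 36 antioxidant and detoxification genes, 34 were tested, and 17 rose, 12 fell and 5 were not called. Nqo1 and Gclc, targets of NRF2, fell by 2.74 and 1.31, while Mgst1, a microsomal glutathione transferase, had 961, 945 and 982 TPM at Day6, against 188, 222 and 221 TPM in Control. Of 34 lysosome and autophagy genes, 33 were tested, and 19 rose, 9 fell and 5 were not called. Bnip3, a receptor for mitophagy, had 829, 729 and 836 TPM at Day6, against 34.4, 33.2 and 33.1 TPM in Control.

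Defining markers of other cell types were mostly listed at or near 0. Of 14 macrophage markers, 5 were tested, of which 3 fell and none rose, and their list summed to 6.99 to 10.4 TPM at Day6 and 18.5 to 21.0 TPM in Control. Adgre1, Itgam, Ptprc, Cd163, C1qa, C1qb and C1qc were listed at 0 in all 6 libraries. Of 11 endothelial markers, 1, Flt1, was tested, and it fell, with a list sum of 1.97 to 2.50 TPM at Day6 and 9.44 to 12.6 TPM in Control. Of 14 skeletal muscle markers, 3 were tested, and Mb and Des rose and Acta1 fell, while Myod1, Myog and Ckm were listed at 0 in all 6 libraries. Of 14 epithelial markers, 5 were tested, and 4, Krt18, Krt19, Cdh1 and Sprr1a, rose at low levels, with Krt19 at 8.41, 4.78 and 8.03 TPM at Day6 and 0, 0.867 and 0.417 TPM in Control. Of 12 bone and cartilage markers, 4 were tested, and Alpl and Comp rose and Sox9 fell, with a list sum of 28.5 to 31.5 TPM at Day6 and 81.3 to 91.1 TPM in Control. Of 12 neuronal and glial markers, 4 were tested, and S100b and Snap25 rose and Tubb3 and Map2 fell. The list sums were 26.3 to 33.9 TPM at Day6 and 11.4 to 14.1 TPM in Control for skeletal muscle, 21.9 to 27.3 TPM at Day6 and 5.90 to 7.39 TPM in Control for epithelium, and 19.4 to 26.2 TPM at Day6 and 10.8 to 11.2 TPM in Control for neurons and glia. Their part in the results above was not tested. Of 34 Hox genes, 14 were tested, and 6 rose and 7 fell, with Hoxc13 at 0.978, 0.270 and 0.664 TPM at Day6 and 23.3, 22.5 and 24.9 TPM in Control.

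Day6 sits between Day4 and Day8, and each step was tested in a fit over all 18 libraries. Of the 12047 genes, 3192 or 26.5% were called between Day6 and Day4, 1811 higher and 1381 lower at Day6. Between Day8 and Day6, 2715 or 22.5% were called, 1245 higher and 1470 lower at Day8. The steps share the Day6 libraries, so a gene's values at the 3 times are given side by side. Adipoq averaged 1364 ± 57.6, 3167 ± 86.4 and 3594 ± 65.9 TPM on Day4, Day6 and Day8 (SD, n = 3 each), with a called first step (log2 1.22, adjusted p = 2.982e-05) and a second step that was not called (0.18, adjusted p = 0.4443). Scd1 averaged 1058 ± 91.2, 3990 ± 492 and 5799 ± 644 TPM and was called at both steps. Slc2a4 averaged 31.5 ± 3.12, 127 ± 6.63 and 165 ± 5.01 TPM, with only its first step called.

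Other fat cell genes, chosen after their values were seen, were lower on Day8 than on Day6. Fabp4 averaged 11665 ± 397, 19239 ± 1202 and 15628 ± 1352 TPM on Day4, Day6 and Day8, and both steps were called, up to Day6 and down to Day8 (log2 -0.30, adjusted p = 0.01839). Cidec averaged 1346 ± 141, 1494 ± 138 and 846 ± 55.7 TPM, and its fall to Day8 was called (log2 -0.82, adjusted p = 0.002008). Gpd1 and Retn were called the same way as Fabp4, with 1354 and 1687 TPM on Day6 and 995 and 1249 TPM on Day8. Thrsp fell at both steps, at 647, 474 and 212 TPM on Day4, Day6 and Day8.

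Of the 16 glucocorticoid responsive genes tested, 9 were lower, 2 higher and 5 not called at Day6 against Day4, and at Day8 against Day6, 8 were lower, 2 higher and 6 not called. Of the 14 cyclic AMP and insulin responsive genes tested, 1 was lower, 8 higher and 5 not called at Day6 against Day4. The 48 mitosis genes tested split into 21 higher, 0 lower and 27 not called at Day6 against Day4. At Day8 against Day6 they split into 0 higher, 35 lower and 13 not called. For the 51 replication genes tested these counts were 12, 0 and 39, and then 1, 34 and 16. Fkbp5 averaged 557 ± 17.6, 108 ± 16.7 and 38.0 ± 2.37 TPM on Day4, Day6 and Day8, with log2 steps of -2.37 and -1.47, both called. Tsc22d3 (GILZ), another glucocorticoid target, averaged 384, 73.2 and 33.99 TPM, and Cebpd 228, 68.8 and 44.6 TPM, with both steps called for each. Other genes, chosen after their values were seen, were called higher at both steps. Adrb3 averaged 1.94, 25.3 and 84.2 TPM on Day4, Day6 and Day8, Pck1 averaged 2.71, 29.0 and 109 TPM, and Ero1l averaged 91.3, 609 and 1524 TPM, with both steps called for each. Lep averaged 0.0981, 1.42 and 5.21 TPM. Pparg averaged 32.2, 84.9 and 88.2 TPM with neither step called (adjusted p = 0.2391 and 0.974), and on Day8 its libraries were at 35.4, 184 and 45.2 TPM. The plot of all 6 groups shows these shapes.

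**Figure D4:**
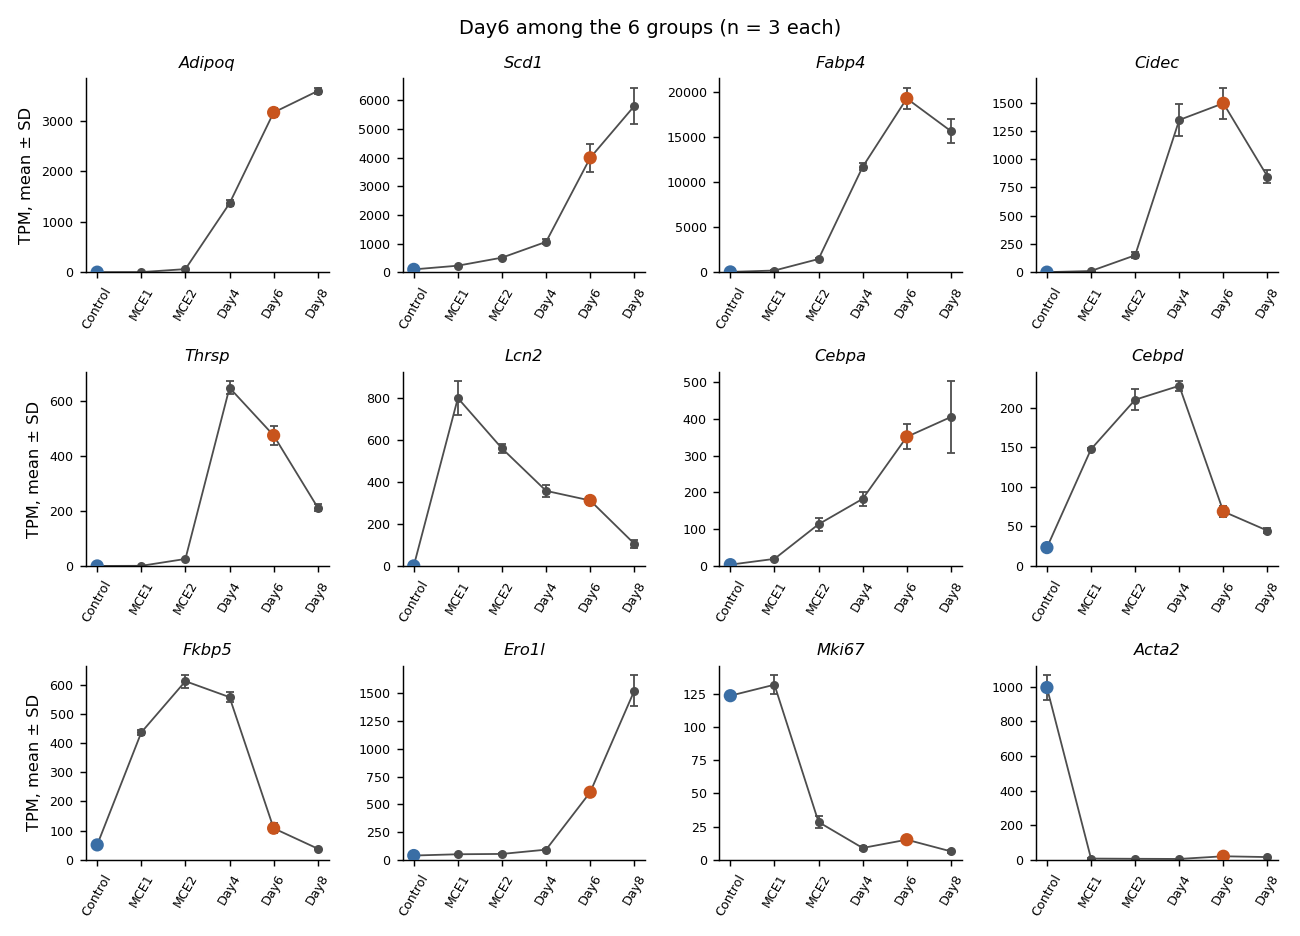
Mean TPM ± SD (n = 3 libraries per group) of 12 genes in Control, MCE1, MCE2, Day4, Day6 and Day8, each with its own linear axis from 0, Control in blue and Day6 in orange. The means of Adipoq, Scd1 and Ero1l are higher on Day8 than on Day6 (3594, 5799 and 1524 TPM against 3167, 3990 and 609 TPM), though the Adipoq step was not called. Fabp4, Cidec and Thrsp are lower on Day8, and Fkbp5 and Cebpd are far below their Day4 levels by Day6.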

How the data were processed

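Polyadenylated RNA of 3T3-L1 cells was sequenced in 18 libraries, of which the 3 Day6 and 3 Control libraries, grouped by their titles, enter the main comparison. The authors deposited 1 table per library with a TPM value for each gene, and per the submitters' processing notes FastQC, cutadapt, HISAT2 and StringTie were used with the mouse build mm9. Versions, annotation and filters are not given in the sources used here. TPM keeps no read depth, so no counting error could be given, and precision rests on the spread between replicates.

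A gene was kept where 3 or more of the 6 libraries reached 1 TPM, and 12 genes listed at another locus in the first Control library were left out. Values were turned into log2(TPM + 1). Differences were tested with limma 3.58.1 (R 4.3.3; trend and robust options) with Benjamini-Hochberg adjustment over all 12047 genes, at a threshold of 0.05, and all adjusted p-values in the text are from it. The steps from Day4 to Day6 and from Day6 to Day8 came from a fit over all 18 libraries. Recovery of known changes was also tried on simulated data with means and spreads taken from these libraries. Its noise was independent and normal, so it could not address scaling or technical replicates. Tables and figures were made with Python 3.11.15, pandas 2.3.3, numpy 2.4.6 and matplotlib 3.10.9.

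The genes and gene lists were chosen with earlier results of these data known. Genes named are a panel of fat cell, matrix and growth genes, the 15 largest rises and 15 deepest falls on the log2 scale at a mean of at least 10 TPM, the 5 with the largest gain and loss of mean TPM, and for each list the members with the largest change, those against the list's direction and some not called. Other genes were chosen after their values were seen. Promoters are RefSeq windows on GRCm38.p6, from 250 bases before to 50 after the start, matched by symbol. The alternatives tried were another pseudocount, filter, scaling and fit, a replicate block, array weights, a fold threshold and leaving out each library. Some genes of the lists are counted but not reported by name here.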

Additional observations from a re-analysis of the deposited data

How the results depend on the processing

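The 8689 calls became 3719 (1746 higher and 1973 lower) when a log2 difference of at least 1 was asked as well, by construction. Under the other alternatives the counts of calls stayed within 1.5 times, from 7562 with a filter of 5 TPM, which tests fewer genes, to 9342 without a filter. Leaving out 1 library gave 8110 to 8798 calls. Median-ratio scaling gave 4449 higher and 4226 lower, and quantile normalization 4029 and 4716. With the replicate number as a block, 8460 genes were called, 3605 higher and 4855 lower. Same-numbered libraries did not deviate together (r = 0.082, -0.013 and -0.035 for numbers 1, 2 and 3), so the numbers were not taken as pairs. Of 399 genes tested by name, 45 lost their call when a log2 difference of at least 1 was asked as well, by construction. In all, 303 of the 399 had the same call and direction in every alternative, this one included, and 96 changed in at least 1. Of those, 3 with differences near 0 turned: Bckdk to 0.1591 under median-ratio scaling, and Gstp1 to -0.1138 and Rpl32 to 0.1443 under quantile normalization; the cause was not tested. Without a depth, low genes and listed zeros carry an unknown counting error.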

Other observations

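Further gene families, gathered by name after the main results were known, held changes not described above. Of 16 cytoplasmic aminoacyl-tRNA synthetases, which load amino acids onto tRNA, all were tested, and 14 fell, none rose and 2 were not called (median -0.81); under median-ratio scaling 12 fell and 1 rose. Vars, the valine enzyme, had 62.7, 65.2 and 63.1 TPM at Day6, against 156, 146 and 147 TPM in Control. Mitochondrial ribosomal proteins moved the other way, with 56 higher, 6 lower and 15 not called of 77 tested (median 0.44). Mrpl12 had 576, 515 and 591 TPM at Day6, against 199, 197 and 173 TPM in Control. Of 27 tested genes of mitochondrial import, 22 rose, 3 fell and 2 were not called (median 0.46). The falls in both families depended on the scaling. Under median-ratio scaling 61 mitochondrial ribosomal proteins rose and 1 fell, and 24 import genes rose and 0 fell.

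Several families split by member. Igfbp4, which binds insulin-like growth factors, had 926, 852 and 946 TPM at Day6, against 11.5, 11.9 and 14.8 TPM in Control, while Igfbp6 had 8.23, 6.72 and 8.52 TPM at Day6, against 40.04, 40.3 and 43.5 TPM in Control. The water channel Aqp1 had 26.02, 24.3 and 23.9 TPM at Day6, against 528, 528 and 542 TPM in Control, whereas Aqp7, the glycerol channel of fat cells, had 23.1, 22.3 and 23.2 TPM at Day6 and was listed at 0 in Control. Among growth factors, Vegfa, which drives vessel growth, had 81.9, 83.8 and 107 TPM at Day6, against 19.7, 18.5 and 18.3 TPM in Control, and Fgf7 had 23.7, 28.02 and 26.9 TPM at Day6, against 302, 273 and 292 TPM in Control. Dnmt1, the maintenance DNA methyltransferase, fell by 2.36 on the log2 scale, and Dnmt3a, a de novo enzyme, rose by 2.25. Semaphorin 3G (Sema3g) had 71.3, 69.1 and 69.8 TPM at Day6, against 0, 0 and 0.209 TPM in Control. In each of these genes the groups did not overlap, nor did they for 75.65% of all genes tested.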
